A study of Mus musculus with 7 samples.

Results

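Genes for 9 sensors and signalling proteins of the Toll-like receptor pathway were followed in mouse neutrophils: the co-receptor genes Cd14 and Ly96, the receptor genes Tlr2, Tlr4, Tlr6 and Tlr13, and Myd88, Irak2 and Irak3. These 9 genes, chosen by name from 28719 genes listed in any table, had a row in all 7 deposited count tables. The neutrophils came from healthy male C57BL/6J mice (bone marrow, blood and spleen in run 1 at 6 weeks of age and in run 2 at 8 weeks) and from male C57BL/6J mice aged 8 weeks with sterile inflammation. Each healthy tissue of a run was 1 library pooled from 3 mice, and all cells had been sorted as live CD11b+ Ly6G+ cells. In the inflammation experiment 5 conditions carried hashtags and shared a single library, with 3 mice pooled per condition: blood of untreated mice, blood and joint lavage of mice with arthritis at day 7 after 150 µl of K/BxN serum on days 0 and 2, and bronchoalveolar and peritoneal lavage 3 h after 25 ng of IL-1β given into the nose or the peritoneum. In the healthy tables a cell was kept when S100a8 and S100a9 held at least 3% of its UMIs (unique molecular identifiers, each counting a captured transcript), and in the inflammation table when its deposited ImmGen class was a granulocyte (GN) class. The rule kept 17607 of 21763 cells. Between 5 and 92 cells of a healthy library lay just under the 3% limit, at 2% to 3%, and 0 to 93 just over it, at 3% to 4%.

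Toll-like receptors recognise conserved microbial molecules. Tlr4 senses lipopolysaccharide with the help of Ly96 (MD-2) and of Cd14, which hands the ligand over, Tlr2 pairs with Tlr1 or Tlr6 to sense lipoproteins, and Tlr13 is an endosomal sensor of bacterial ribosomal RNA. Myd88 is the adaptor that couples most of these receptors, and the interleukin-1 receptor, to the IRAK kinases. Irak2 carries the signal on, whereas Irak3 (IRAK-M) is known as an inhibitor of it.

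Levels are given as CPM, the UMIs of a gene per 1000000 UMIs of all kept cells of a pool. Kept cells held 1360064 to 9104133 UMIs per healthy library and 942688 to 10293966 per hashtagged condition, with medians of 775 to 2698.5 and of 2527 to 3681 UMIs per cell. S100a8 and S100a9 were abundant in all 11 pools, which the rule itself fixed in the healthy ones. All 15 genes of the neutrophil marker list had UMIs in every pool, with Csf3r at 145 to 4056 CPM and Camp at 1.17 to 46301 CPM. The monocyte markers Ccr2 and Fcgr1 did not exceed 12.5 and 8.06 CPM. The list of 11 monocyte markers summed to 269 to 1391 CPM in healthy libraries, with Ly6c2 at up to 1342 CPM and Csf1r at 11.3 CPM or more in every pool. The B cell list summed to 4.47 to 903 CPM and the erythroid list to 30378 CPM in blood run 2, against 252 to 913 CPM in the other 5 healthy libraries. Some markers had no row in run 1, so sums there can cover part of a list. In bone marrow run 1, which gave the 4.47 CPM, 4 of 8 B cell markers had a row. Of the 11 monocyte markers 8 had a row in blood run 1 and 9 in spleen run 1. The spleen libraries stood apart from each other: 44.0% of kept cells in spleen run 1 but 3.13% in spleen run 2 were granule-rich, as defined further on, against 62.6% and 46.1% in bone marrow and 11.0% and 0.926% in blood. The differences of named members from spleen are therefore also given without spleen run 1. Over all kept cells, those of bone marrow from spleen are given without spleen run 2 too. Either leaves 1 spleen library. Between 0 and 36 cell barcodes were shared by a pair of libraries.

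The first question was whether the genes differ between the neutrophils of healthy tissues. Cd14, Tlr6, Tlr13, Ly96 and Myd88 were lower in bone marrow than in blood. In this fit no member was higher in bone marrow, and none differed between spleen and blood past the threshold. Of 6588 genes tested by edgeR with run as a block, 15.8% were lower and 15.2% were higher in bone marrow than in blood at a Benjamini-Hochberg adjusted p under 0.05, so 5 of 9 members lower and 0 higher stand against those shares. The median log2 fold change was -0.84 over the members and 0.00 over all genes tested.

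Cd14 was at 2.12 and 10.8 CPM in bone marrow runs 1 and 2, at 33.8 and 137 CPM in blood, and at 16.4 and 142 CPM in spleen. Both marrow libraries lay below all 4 others, and within each tissue run 2 was higher, by 4.04-fold in blood, 5.08-fold in bone marrow and 8.65-fold in spleen. The run and the age of the mice changed together, so their parts in this gap cannot be told apart. Blood over bone marrow was 16.0-fold in run 1 and 12.7-fold in run 2. In the fit Cd14 was lower in bone marrow than in blood by -3.48 ± 0.29 (log2 fold change ± SE, 2 libraries per tissue, edgeR adjusted p = 0.000228). Against spleen it was lower by -3.18 ± 0.29 (edgeR adjusted p = 0.00179), by -3.33 without spleen run 1 and by -2.80 without spleen run 2.

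The partner of Tlr4, Ly96, was at 25.9 and 33.8 CPM in bone marrow, 60.3 and 72.7 CPM in blood and 26.4 and 59.8 CPM in spleen. Bone marrow and blood did not overlap, and spleen run 1 sat with bone marrow. Ly96 was lower in bone marrow than in blood by -0.84 ± 0.24 (edgeR adjusted p = 0.0259). Tlr4 itself, the lipopolysaccharide receptor, was at 11.5 and 12.9 CPM in bone marrow, 20.6 and 26.4 CPM in blood and 10.8 and 22.5 CPM in spleen. Its bone marrow and blood values did not overlap either, yet its log2 fold change of -0.64 ± 0.26 missed the threshold (edgeR adjusted p = 0.0954).

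Tlr6, which works in a heterodimer with Tlr2, was at 5.42 and 8.13 CPM in bone marrow, 20.6 and 33.3 CPM in blood and 7.44 and 32.7 CPM in spleen. It was lower in bone marrow than in blood by -1.68 ± 0.33 (edgeR adjusted p = 0.0057). Against spleen the value of -1.18 ± 0.33 missed the threshold (edgeR adjusted p = 0.083). It was -1.56 without spleen run 1 and -0.55 without spleen run 2, each of which leaves 1 spleen library. Tlr13 was at 25.4 and 31.6 CPM in bone marrow, 74.3 and 73.5 CPM in blood and 29.0 and 55.7 CPM in spleen. The runs of blood were within 1 CPM of each other, and Tlr13 was lower in bone marrow by -1.06 ± 0.24 (edgeR adjusted p = 0.0102).

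Tlr2 did not follow this order. It was at 28.0 and 83.9 CPM in bone marrow, 36.8 and 109 CPM in blood and 29.0 and 89.96 CPM in spleen. The 3 tissues of a run lay close together, and run 2 was 2.95- to 3.10-fold above run 1 in each tissue. The log2 fold change between bone marrow and blood was -0.07 ± 0.23 (edgeR adjusted p = 0.83).

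Among the signalling genes, Myd88 was at 50.2 and 56.1 CPM in bone marrow, 184 and 198 CPM in blood and 92.3 and 192 CPM in spleen. Blood exceeded bone marrow 3.67-fold in run 1 and 3.53-fold in run 2. In the fit Myd88 was lower in bone marrow by -1.53 ± 0.22 against blood (edgeR adjusted p = 0.00166) and by -1.15 ± 0.22 against spleen (edgeR adjusted p = 0.0197). The value against spleen was -1.36 without spleen run 1 and -0.92 without spleen run 2, each of which leaves 1 spleen library. Irak3 lay between 17.8 and 21.7 CPM in the 6 libraries, with a log2 fold change between bone marrow and blood of 0.54 ± 0.27 (edgeR adjusted p = 0.162). Irak2 lay between 14.4 and 17.5 CPM, and its value of 0.12 ± 0.28 missed the threshold as well (edgeR adjusted p = 0.765). CPM divides by total UMIs, while the fit also uses TMM factors, which centre the bulk of genes. These were 1.15 and 1.07 in blood and 0.917 and 0.867 in bone marrow, in runs 1 and 2. The fit thus sets every gene higher in bone marrow against blood than CPM does.

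**Figure D1:**
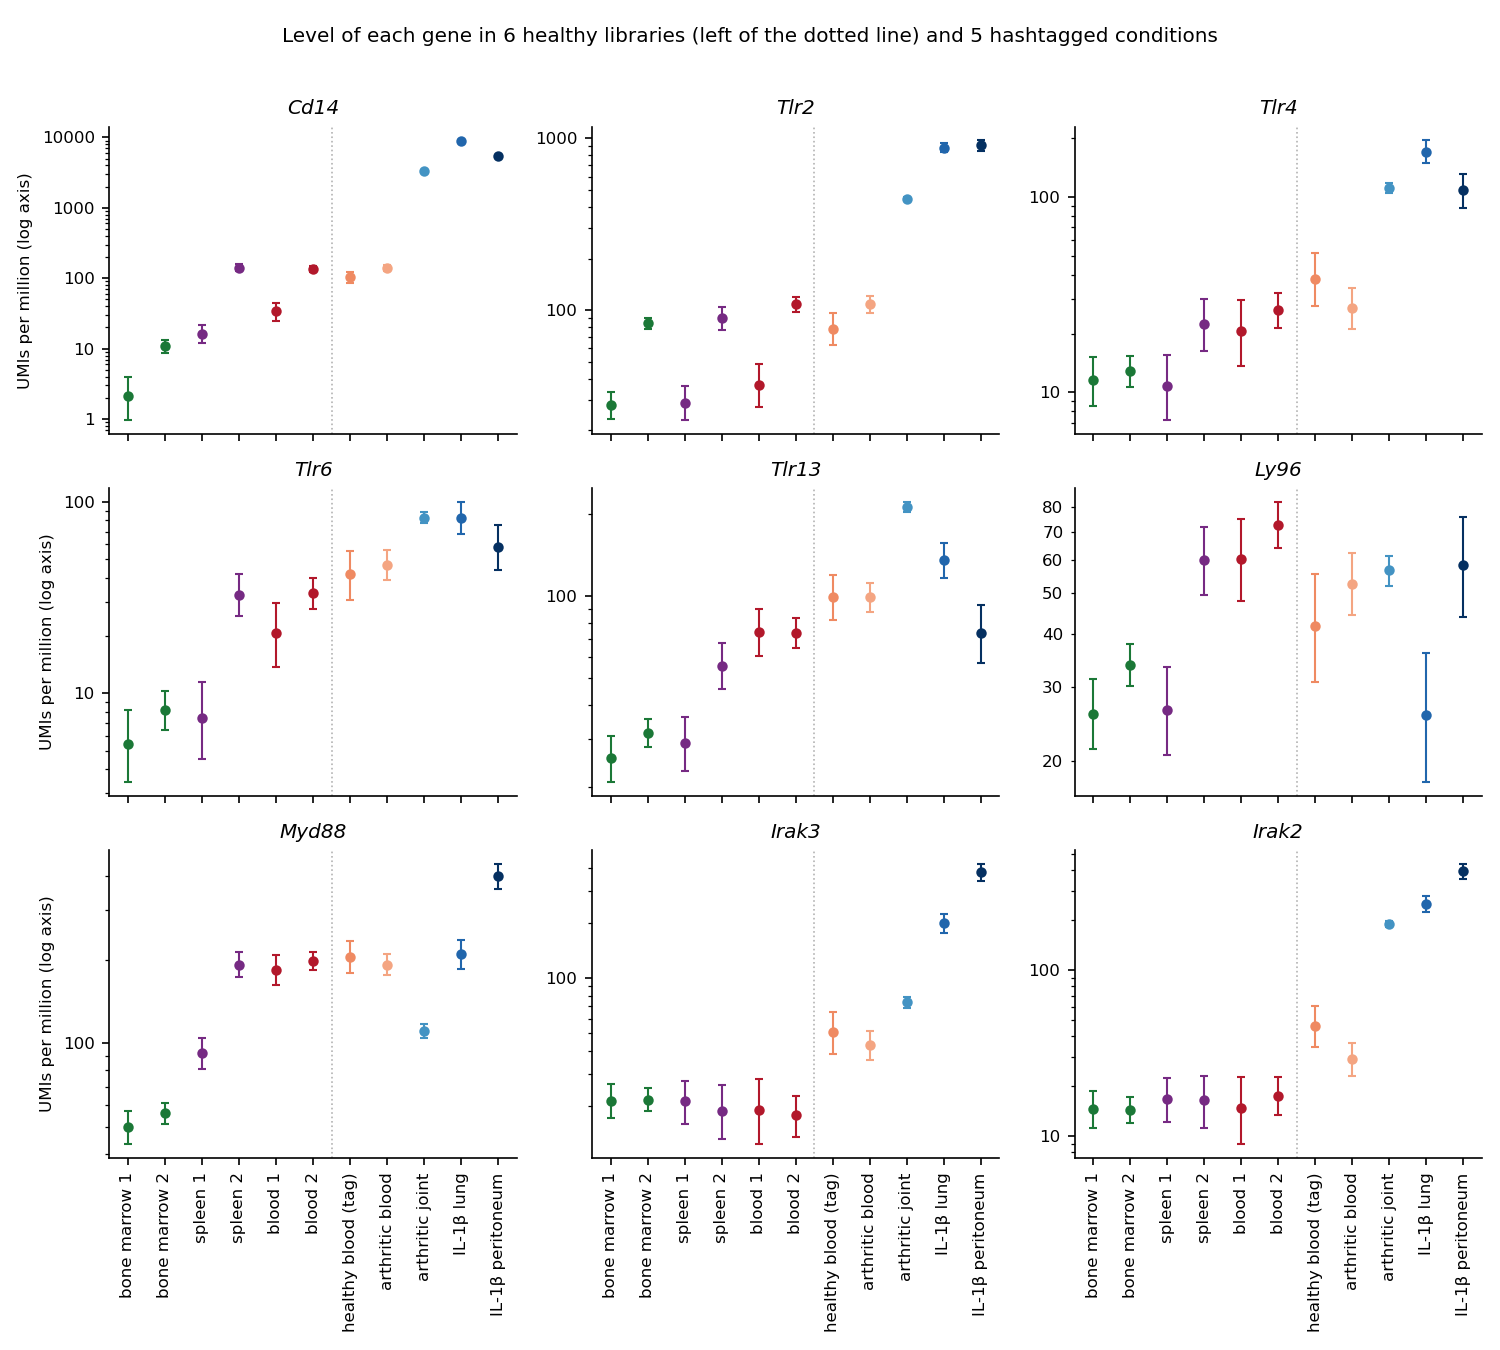
Level of each gene in CPM (log axis) in the 6 healthy libraries and the 5 hashtagged conditions, with bars giving the exact 95% Poisson interval of the pooled count. Cd14 runs from 2.12 CPM in bone marrow run 1 to 8897 CPM in the lung after IL-1β, and spleen run 1 lies nearer to bone marrow than spleen run 2 does for Tlr6, Ly96 and Myd88.

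Between bone marrow and spleen, Cd14 and Myd88 were the members lower in bone marrow, where 3.96% of all genes were lower and 0.896% were higher. Between spleen and blood 0 members passed, against 0.137% of genes higher and 0.0304% lower in spleen. At an unadjusted p under 0.05 edgeR gave 2 of 9 members there, against 880 of all 6588 genes tested. DESeq2 called 0 members at its adjusted threshold. For Cd14 the difference of spleen from blood was -0.31 ± 0.25 (edgeR adjusted p = 0.604). It was -0.10 without spleen run 1, which leaves 1 spleen library. Within run 1 spleen held 0.484 times the Cd14 level of blood, and within run 2 it held 1.04 times that level.

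**Figure D2:**
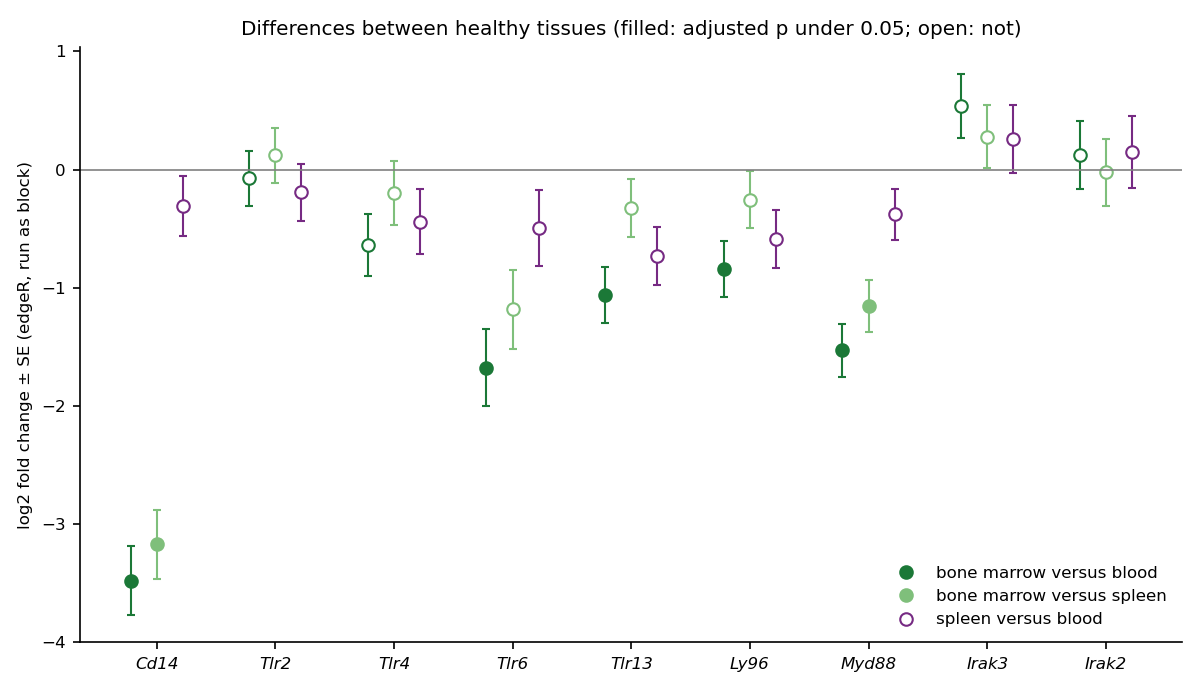
Log2 fold changes with their standard errors from the edgeR fit for the 3 pairs of healthy tissues, filled where the adjusted p is under 0.05. Cd14 and Myd88 are filled in both comparisons of bone marrow, while every spleen against blood value is open.

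These calls rest on run as a block. Without the block 0 members were called in any of the 3 comparisons, although the log2 fold changes of Cd14 (-3.38, edgeR adjusted p = 0.138) and Myd88 (-1.53, edgeR adjusted p = 0.0535) between bone marrow and blood barely moved. With all deposited cells in place of those kept by S100a8 and S100a9, Cd14 was at -3.33 (edgeR adjusted p = 0.0826) and again 0 members were called. The Myd88 call against spleen was lost without blood run 1, blood run 2, bone marrow run 2 or spleen run 2, where the adjusted p ran from 0.0551 to 0.157. Leaving out 1 library at a time left 2 to 5 members called between bone marrow and blood. Those lost were Tlr6, Tlr13 and Ly96 without blood run 1 or bone marrow run 2, Tlr13 and Ly96 without blood run 2, and Ly96 without bone marrow run 1. The Ly96 call was also lost under DESeq2 (DESeq2 adjusted p = 0.0774) and with limits on cell quality (edgeR adjusted p = 0.0868). Leaving out cells that hold other cell types' markers (erythroid list aside) changed which marrow cells were compared. The monocyte list holds Ly6c2, which neutrophil precursors also express, and 290 of 1206 and 1439 of 3426 marrow cells remained against 1122 of 1306 and 3342 of 3672 blood cells, with granule-rich marrow cells down from 755 to 87 and from 1581 to 318. In that fit Cd14, Tlr6 and Myd88 kept their calls between bone marrow and blood. Tlr2 (0.85, edgeR adjusted p = 0.00518) and Irak3 (0.92, edgeR adjusted p = 0.0280) were then higher in bone marrow, Tlr13 was at -0.31 (edgeR adjusted p = 0.294) and Ly96 at 0.089 (edgeR adjusted p = 0.783).

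Bone marrow holds neutrophils at several stages of maturation, and the transcripts of secondary granule proteins mark the earlier ones. Cells were therefore divided within each library by the share of UMIs from Camp, Ngp and Ltf. Granule-rich cells held at least 2% and granule-poor cells under 0.5%. They numbered 34 to 1581 and 261 to 3620 per library, and 6 to 290 cells per library lay just under the upper cut, between 1% and 2%. Just under the lower cut, between 0.25% and 0.5%, lay 18 to 675 cells, which made up 54.4% and 58.3% of the granule-poor cells of bone marrow, 42.5% and 0.932% of those of spleen, and 4.77% and 0.552% of those of blood, in runs 1 and 2. The classes are ranges of a score and not cell types.

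In granule-rich cells 7 of 9 members were lower than in granule-poor cells of the same library: Cd14, Tlr2, Tlr4, Tlr6, Tlr13, Ly96 and Myd88. None was higher. Of 5356 genes tested, 24.6% were lower and 20.2% were higher in granule-rich cells. The median log2 fold change was -1.55 over the members and -0.03 over all genes tested.

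Cd14 was at 0, 1.79, 5.02, 33.9, 5.71 and 24.2 CPM in granule-rich cells of blood, bone marrow and spleen in run 1 and then of the same tissues in run 2. In granule-poor cells it was at 46.6, 4.02, 58.8, 141, 23.3 and 162 CPM in the same order. It was lower in granule-rich cells of 6 of 6 libraries, though the level of both classes differed between libraries and the classes overlapped across them, with a log2 fold change of -2.30 ± 0.29 (edgeR adjusted p = 1.47e-05).

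Ly96 was at 8.07 to 33.9 CPM in granule-rich and at 66.2 to 89.8 CPM in granule-poor cells. It was lower in granule-rich cells of 6 of 6 libraries, and the log2 fold change was -1.99 ± 0.23 (edgeR adjusted p = 6.44e-06). Myd88 was at 36.3 to 43.8 CPM in the granule-rich cells of the 6 libraries, though the 42.4 CPM of blood run 2 rest on 5 UMIs (exact 95% Poisson interval 13.8 to 99.02 CPM). In granule-poor cells it split by tissue, at 98.5 and 89.3 CPM in bone marrow against 205 to 265 CPM in blood and spleen. Its log2 fold change was -1.56 ± 0.20 (edgeR adjusted p = 1.16e-05).

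Among the receptors, Tlr6 was at 0 to 8.49 CPM in granule-rich and 14.1 to 37.5 CPM in granule-poor cells, a log2 fold change of -2.38 ± 0.39 (edgeR adjusted p = 0.00013). Tlr13 was at 4.03 to 43.8 and at 51.0 to 87.9 CPM, a change of -1.55 ± 0.26 (edgeR adjusted p = 0.000166). Tlr4 was at 6.52 to 17.0 and at 20.5 to 27.1 CPM, a change of -1.03 ± 0.26 (edgeR adjusted p = 0.00409). Each of these 3 receptors was lower in granule-rich cells of 6 of 6 libraries. The granule-rich pools of blood run 1, blood run 2 and spleen run 2 held few UMIs of any member. These were 0, 4 and 6 for Cd14, 0, 1 and 0 for Tlr6, 4, 2 and 3 for Tlr4, 15, 3 and 1 for Tlr13, 6, 8 and 14 for Tlr2, 6, 4 and 2 for Ly96 and 15, 5 and 9 for Myd88, so their levels there are uncertain.

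Tlr2 was at 15.6 to 67.9 CPM in granule-rich and at 45.5 to 177 CPM in granule-poor cells. The classes overlapped across libraries, but within each of the 6 granule-rich cells were lower, by -1.39 ± 0.26 in the fit (edgeR adjusted p = 0.000414).

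Irak3 and Irak2 behaved otherwise. Irak3 was at 11.7 to 42.4 CPM in granule-rich and 17.1 to 27.6 CPM in granule-poor cells, so that the classes overlapped fully (log2 fold change 0.30 ± 0.25, edgeR adjusted p = 0.358). Irak2 gave -0.46 ± 0.29 (edgeR adjusted p = 0.215).

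**Figure D3:**
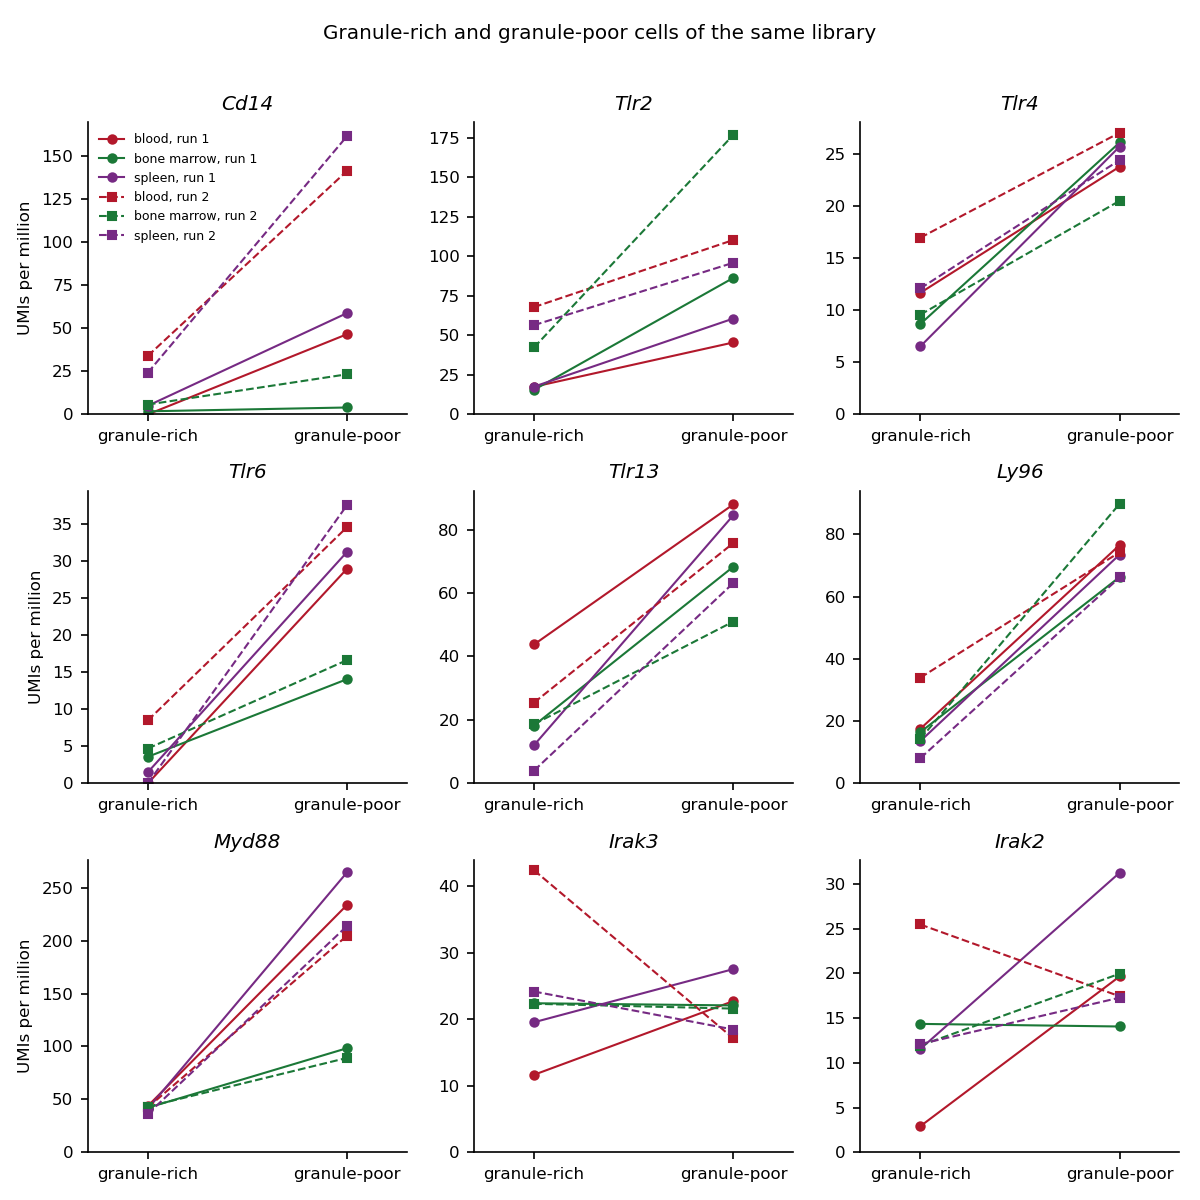
Level of each gene in CPM in granule-rich and granule-poor cells, with a line joining the 2 classes of each healthy library. Lines rise toward granule-poor cells in all 6 libraries for Cd14, Tlr2, Tlr4, Tlr6, Tlr13, Ly96 and Myd88 and cross for Irak3.

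The 7 calls were unchanged without Camp, Ngp and Ltf in the totals, with cuts of 5% and 0.25%, and without any single library. Removing cells with at least 2 UMIs of another cell type's markers left 4 libraries and a value for 4 members. Tlr2 (-1.26), Ly96 (-1.83) and Myd88 (-1.39) were called, the call of Tlr13 was lost (-0.87, edgeR adjusted p = 0.0534), and the other 5 members did not pass the filter on low counts. With the erythroid list aside all 4 were called (Tlr13 -0.99, edgeR adjusted p = 0.0216). The monocyte list without Ly6c2, a gene that neutrophil precursors also express, summed to 8.49 to 35.0 CPM in granule-rich and 88.2 to 244 CPM in granule-poor cells, so it moved with the members, and its part in the result was not tested.

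Tissues were next compared within granule-poor cells. These did not have like granule content, since Camp, Ngp and Ltf held 0.264% and 0.278% of their UMIs in bone marrow against 0.0586% and 0.0158% in blood. Tlr2 was at 86.4 CPM in bone marrow, 45.5 CPM in blood and 60.7 CPM in spleen of run 1, and at 177, 110 and 96.0 CPM in run 2. Bone marrow was highest in each run. Fitting granule-poor cells alone, Tlr2 was higher in bone marrow than in blood by 1.09 (log2, edgeR adjusted p = 0.0127) and than in spleen by 1.10 (edgeR adjusted p = 0.0182). Without spleen run 1, an alternative added after seeing the data that leaves 1 spleen library, these values were 1.06 (edgeR adjusted p = 0.00108) and 1.35. With cells under 0.25% alone, also added then, they were 1.21 (edgeR adjusted p = 0.0505) and 1.21 (edgeR adjusted p = 0.0732), so both calls were lost, with 119 and 482 cells left in bone marrow. In granule-poor cells under 0.5% Cd14 stayed lower in bone marrow than in blood, by -2.34 (edgeR adjusted p = 0.000455), and so did Myd88, by -0.90 (edgeR adjusted p = 0.0192). Under 0.25% Cd14 was at -2.24 (edgeR adjusted p = 0.0112), while the call of Myd88 was lost at -0.91 (edgeR adjusted p = 0.124). In the cells under 0.5% the calls of Tlr6 (-0.72, edgeR adjusted p = 0.179) and Tlr13 (-0.17, edgeR adjusted p = 0.718) were lost, and Ly96 turned to 0.42 (edgeR adjusted p = 0.337). In granule-poor cells the monocyte list without Ly6c2 summed to 217 and 88.2 CPM in bone marrow and 214 and 133 CPM in blood.

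Shares of cells with a UMI were compared after each healthy cell was thinned to 500 UMIs, which left out 26 cells, all from blood run 1. At that depth Cd14 was seen in 0.0829% of cells of bone marrow run 1, in 1.88% of blood and in 1.06% of spleen. In run 2 the shares were 0.613%, 5.77% and 6.92%. As a background, barcodes of spleen run 2 with T cell markers held Cd14 in 0.784% (2 of 255, exact 95% binomial interval 0.0951 to 2.80%). That interval lay below the 6.92% of the kept cells of the same library, and the background in the other libraries was not measured. The unthinned shares were 0.58% and 2.69% in bone marrow and 2.91% and 9.69% in blood. Intervals and floors cover counting error only.

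Myd88 was seen in 2.82% and 3.04% of thinned cells in bone marrow, 10.6% and 9.99% in blood and 7.75% and 10.1% in spleen. The share was 1.18% in the T cell barcodes (exact 95% binomial interval 0.243 to 3.40%), an interval that holds both bone marrow shares. Those barcodes came from spleen run 2 alone, and whether T cells hold Myd88 of their own was not tested. A background for bone marrow was not measured. No UMI of Tlr2, Tlr4, Tlr6 or Tlr13 was found in 88.2% to 95.4% of the thinned cells of a healthy library. Cells with 2 or more of these receptors made up 0.0829% to 0.697%.

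The next question was how the genes stood in inflamed sites. Cells of each condition were a single pool, so the values have no replicate check and no test, and the ratios below carry exact conditional 95% intervals for counting error alone. Relative to hashtagged healthy blood, Cd14, Tlr2, Tlr4 and Irak2 were at least 2-fold higher in the arthritic joint and in both IL-1β sites. Irak3 was so in both IL-1β sites and Tlr13 in the joint. No member lay at least 2-fold lower in any condition, and none was 2-fold away in arthritic blood.

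Of the 3105 genes with at least 50 CPM in at least 1 condition, 12.7% were at least 2-fold higher and 19.5% lower in the joint. The shares were 14.7% and 43.6% in the lung and 14.8% and 44.0% in the peritoneum, and 0.998% and 4.06% in arthritic blood. Against these, 5 of 9 members were higher and 0 lower at each of the 3 sites. All 9 passed the filter, Tlr4, Tlr6, Ly96 and Irak2 only through other conditions than healthy blood, where they were under 50 CPM, so the filter itself favoured a higher value for those 4. Tlr4 and Irak2 are among the 5 counted at each site. Of the members that passed in healthy blood, Cd14 and Tlr2 were higher at all 3 sites. Tlr13 was so in the joint, Irak3 at the IL-1β sites and Myd88 at none. The median ratio was 2.13, 3.93 and 2.83 over the members in joint, lung and peritoneum and 0.788, 0.570 and 0.566 over all tested genes.

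Cd14 was at 103 CPM in healthy blood and 141 CPM in arthritic blood. It was at 3362 CPM in the joint, 8897 CPM in the lung and 5514 CPM in the peritoneum. The ratios were 32.6 (interval 27.2 to 39.5) in the joint, 86.3 (71.9 to 104) in the lung and 53.5 (44.5 to 64.8) in the peritoneum. Healthy blood held 116 Cd14 UMIs among 1124877, so its own count sets the width of these intervals. Weighting cells equally in place of summing their UMIs gave Cd14 ratios of 19.9 in the joint, 47.0 in the lung, 32.2 in the peritoneum and 0.984 in arthritic blood, so the size of these ratios depends on that choice. The arthritic joint exceeded the blood of the same condition 23.8-fold (21.5 to 26.4).

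The 5 conditions shared a capture, and the part of free RNA from the lavage cells in the blood values was not tested. Hashtagged healthy blood held 103 CPM of Cd14. The separately captured healthy blood libraries held 33.8 and 137 CPM, but they were made with an earlier version of the chemistry than the inflammation library.

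Tlr2 was at 78.2 and 108 CPM in healthy and arthritic blood and at 444, 883 and 910 CPM in joint, lung and peritoneum. The ratios to healthy blood were 5.68 (4.597 to 7.09), 11.3 (9.09 to 14.2) and 11.6 (9.33 to 14.7). The IL-1β sites did not differ beyond counting error (lung over peritoneum 0.971, interval 0.888 to 1.06). Tlr4 was at 38.2, 27.1, 111, 171 and 108 CPM in the same order of conditions, with ratios of 2.91 (2.15 to 4.04) in the joint, 4.48 (3.22 to 6.35) in the lung and 2.83 (1.96 to 4.14) in the peritoneum.

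Tlr6 and Tlr13 moved less. Tlr6 was at 41.8 CPM in healthy blood, 82.7 CPM in the joint, 82.5 CPM in the lung and 58.3 CPM in the peritoneum, where the ratio of 1.40 had an interval of 0.929 to 2.11. Tlr13 was at 99.6 CPM in healthy blood, 212 CPM in the joint, 135 CPM in the lung and 73.2 CPM in the peritoneum. By total UMIs joint was thus the highest and peritoneum the lowest for Tlr13, with a ratio between them of 2.90 (2.28 to 3.74). With TMM factors the joint was at 3.14 and the peritoneum at 1.38 of healthy blood, which was then the lowest. The Tlr4 partner Ly96 stayed within 25.7 to 58.3 CPM in the 5 conditions.

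Irak2 and Irak3 took the same order of conditions, and Myd88 another. Irak2 was at 46.2 CPM in healthy blood, 29.0 CPM in arthritic blood, 189 CPM in the joint, 249 CPM in the lung and 392 CPM in the peritoneum. The inhibitor Irak3 was at 50.7, 43.1, 73.7, 199 and 377 CPM in that order. Its ratio was 1.46 (1.11 to 1.94) in the joint but 3.93 (2.94 to 5.33) in the lung and 7.43 (5.61 to 10.0) in the peritoneum. With cells weighted equally it was 1.06 in the joint and 5.43 in the peritoneum. Myd88 was at 204, 192, 111, 210 and 398 CPM, lowest in the joint and highest in the peritoneum. Its ratio to healthy blood was 0.541 (0.469 to 0.626) in the joint and 1.95 (1.65 to 2.30) in the peritoneum.

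**Figure D4:**
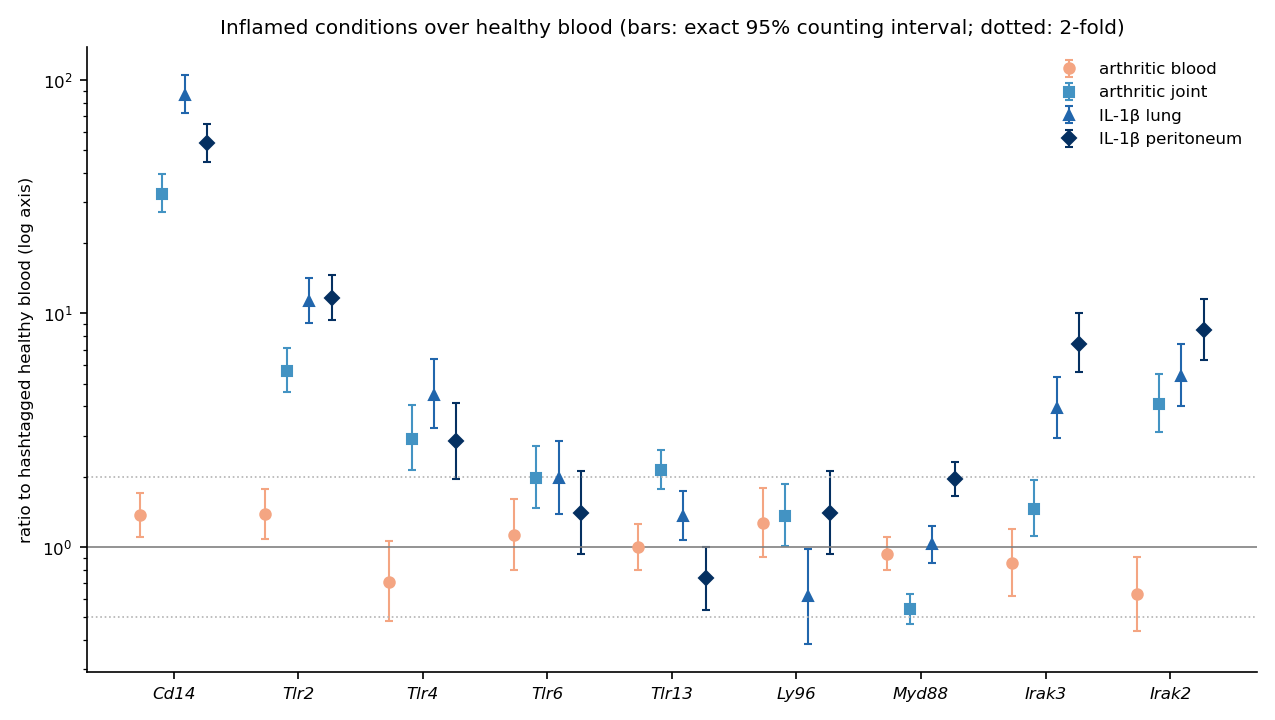
Ratio of each gene's level to that of hashtagged healthy blood (log axis) in the 4 other conditions, with exact 95% intervals for counting error and dotted lines at 2-fold. Cd14 lies between 32.6 and 86.3 in the 3 sites, and Myd88 lies below 1 in the joint and above 1 in the peritoneum.

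Ratios depended on the scaling. By total UMIs the median tested gene stood at a log2 ratio of -0.34 in the joint, -0.81 in the lung, -0.82 in the peritoneum and -0.33 in arthritic blood. TMM factors, which centre the bulk of genes, raised every ratio by 1.47-, 1.87-, 1.88- and 1.38-fold in these conditions. The tested genes that were at least 2-fold higher and lower then made up 21.3% and 5.12% in the joint, 27.3% and 17.7% in the lung, 27.3% and 16.7% in the peritoneum and 3.51% and 0.87% in arthritic blood. Under TMM 7 members were at least 2-fold higher in the joint, 7 in the lung and 8 in the peritoneum. Myd88 was then at 0.796 of healthy blood in the joint, while Ly96 in the lung turned from 0.616 to 1.15 and Tlr13 in the peritoneum from 0.735 (interval 0.537 to 1.00) to 1.38. In arthritic blood Myd88 turned from 0.937 to 1.29 and Irak3 from 0.850 to 1.17.

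The monocyte list summed to 283 CPM in healthy blood, 336 CPM in arthritic blood, 301 CPM in the joint, 296 CPM in the lung and 389 CPM in the peritoneum, where Adgre1 reached 157 CPM against 23.5 to 44.4 CPM in the other conditions. Ccr2 was at 0 or under 1 CPM throughout. In the joint, Fcgr1 was at 8.06 CPM (83 UMIs) against 0.889 CPM (1 UMI) in healthy blood, and C1qa, C1qb and C1qc held 28, 39 and 20 UMIs against 1, 0 and 0. The part of such cells in the ratios was not tested beyond leaving out cells that hold these markers. Without cells holding markers of other cell types, Cd14 was 30.1-fold above healthy blood in the joint, 75.95-fold in the lung and 48.4-fold in the peritoneum, and Irak3 in the peritoneum was at 5.41 in place of 7.43.

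Thinned to 1000 UMIs, Cd14 was detected in 7.63% of healthy blood cells (exact 95% binomial interval 5.09 to 10.9%) and 10.8% of arthritic blood cells. It was detected in 71.4% of joint cells, 97.6% of lung cells (95.02 to 99.01%) and 88.7% of peritoneal cells. The median cell held 0 Cd14 UMIs in both bloods, 2 in the joint, 7 in the lung and 5 in the peritoneum. In the joint 28.6% of cells had none while 7.53% had 10 or more, and the highest had 45. Thinning left out 155 of 509 healthy blood cells, 140 of 814 arthritic blood cells, 123 of 2857 joint cells, 94 of 380 lung cells and 61 of 292 peritoneal cells. The unthinned shares were 19.8%, 28.7%, 86.0%, 93.7% and 89.0% in this order.

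**Figure D5:**
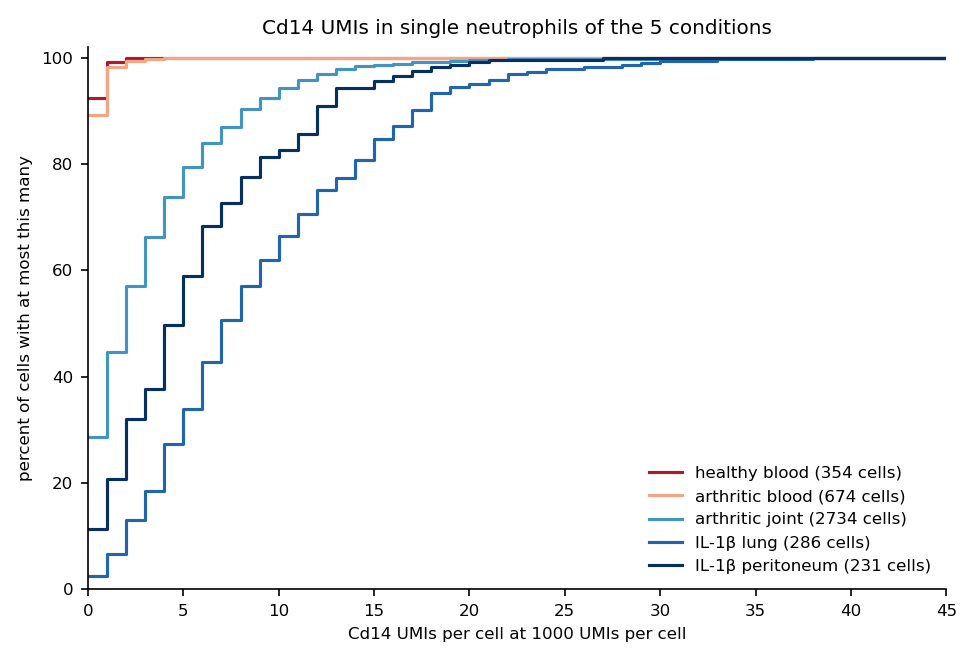
Cumulative share of cells by their Cd14 UMIs after thinning to 1000 UMIs per cell, a line for each condition with its number of cells. The curves of both bloods are at or above 89.2% at 0 UMIs, the joint starts at 28.6%, and the lung at 2.45%.

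Tlr2 was detected at this depth in 4.802% and 9.64% of cells in healthy and arthritic blood and in 30.3%, 51.4% and 53.7% in joint, lung and peritoneum. Within the joint, Tlr2 was detected in 23.9% of cells without Cd14, in 31.3% of those with 1 to 4 Cd14 UMIs and in 35.5% of those with 5 or more. In the peritoneum it was seen in 57.7%, 52.8% and 53.4% of the same classes, with 26 cells in the class without Cd14. In the lung it was seen in 59.2% of 71 cells with 1 to 4 Cd14 UMIs and in 48.1% of 208 cells with 5 or more. These classes were cut after the values were seen, the cells share a pool, and the shares are a description.

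At least 2 of the 4 receptors were detected in 1.98% of healthy blood cells and 1.34% of arthritic blood cells. This compares with 12.3% in the joint, 22.03% in the lung and 11.3% in the peritoneum.

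Tlr2 and Irak2 stood high in all 3 inflamed sites and Myd88 did not, and the promoters of these 3 are shown. Cd14 and Tlr4 stood high there too, but theirs are not shown. They run from 250 bases before to 50 after the start in RefSeq (GRCm38.p6, minus strand for Tlr2 and Myd88). Tlr2 is at chr3:83841559-83841858, Irak2 at chr6:113638217-113638516 and Myd88 at chr9:119339969-119340268. Capitals mark matches to the NF-kB consensus, and no AP-1 (TGANTCA) or C/EBP (TTGCNNAA) match on either strand was found in these 3.
Tlr2: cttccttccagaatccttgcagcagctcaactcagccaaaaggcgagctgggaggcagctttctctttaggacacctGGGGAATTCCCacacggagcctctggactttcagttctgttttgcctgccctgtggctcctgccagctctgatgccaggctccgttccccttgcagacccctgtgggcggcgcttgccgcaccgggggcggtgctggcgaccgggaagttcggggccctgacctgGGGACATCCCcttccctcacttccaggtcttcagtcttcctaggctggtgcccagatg
Irak2: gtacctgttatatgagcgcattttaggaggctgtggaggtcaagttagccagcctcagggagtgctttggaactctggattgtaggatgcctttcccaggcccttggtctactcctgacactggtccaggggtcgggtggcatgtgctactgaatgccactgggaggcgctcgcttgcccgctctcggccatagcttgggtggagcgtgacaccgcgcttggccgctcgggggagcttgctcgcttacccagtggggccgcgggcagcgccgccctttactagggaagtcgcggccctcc
Myd88: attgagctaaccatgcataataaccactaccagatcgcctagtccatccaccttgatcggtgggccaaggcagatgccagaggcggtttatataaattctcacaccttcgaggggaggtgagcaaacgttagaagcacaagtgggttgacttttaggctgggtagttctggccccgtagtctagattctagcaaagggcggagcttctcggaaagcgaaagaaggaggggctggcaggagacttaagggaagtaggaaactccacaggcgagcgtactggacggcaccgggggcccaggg

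The Tlr2 promoter held the NF-kB consensus in overlapping matches that began 173 and 172 bases before the start, and again from 8 bases before it. Of 32851 mouse promoters of this length searched on both strands, 4.51% held such a match, 7.81% the AP-1 and 10.8% the C/EBP letters. A C/EBP match was found in Tlr13, in 1 of 2 promoters of Tlr6 and in 1 of 2 of Irak3. Promoters were matched for 6 of 9 members, namely Tlr2, Tlr6, Tlr13, Myd88, Irak2 and Irak3. A match is a description of the letters and not a site of binding.

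Other genes of the pathway were read from lists of receptors, accessory proteins, adaptors and inhibitors. Of the list of 9 other receptor genes, which counts the homologue Cd180, Tlr7 alone passed the filter of the tissue fit, with no difference past the threshold. In the inflammation library Tlr3 and Tlr11 had 0 UMIs in all 5 conditions. Tlr5 had 95 UMIs in 2857 joint cells and 0 in 380 lung cells.

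Among accessory proteins, 3 of 6 tested were lower and 2 higher in bone marrow than in blood, where 15.8% of all genes were lower and 15.2% higher. Unc93b1, which carries endosomal receptors to their compartment, was lower by -1.36 ± 0.22 (edgeR adjusted p = 0.00247) and Nrros by -1.65 ± 0.25 (edgeR adjusted p = 0.00212). Lbp, the lipopolysaccharide-binding protein, was higher by 2.79 ± 0.54 (edgeR adjusted p = 0.00578). Of the adaptors and kinases 7 of 15 were lower and 0 higher, among them Irf7 by -1.93 ± 0.22 (edgeR adjusted p = 0.000697). Of the inhibitors 2 of 5 were lower and 0 higher, Tnfaip3 by -1.62 ± 0.42 (edgeR adjusted p = 0.019). The list medians were -0.69, -0.36 and -0.54, against 0.00 over all genes. In granule-rich cells Irf5 was lower by -3.21 ± 0.39 (edgeR adjusted p = 7.76e-06) and Lbp higher by 4.01 ± 0.35 (edgeR adjusted p = 3.27e-07).

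In the inflamed sites Tnfaip3, which encodes the deubiquitinating protein A20, was 3.10-fold above its healthy blood level of 24.9 CPM in the joint, 15.5-fold in the lung and 42.8-fold in the peritoneum. Of 5 inhibitors tested 3 were at least 2-fold higher in each IL-1β site and 0 lower, and of 11 adaptors and kinases 4 were higher and 3 lower. The background was 14.7% of genes higher and 43.6% lower in the lung and 14.8% and 44.0% in the peritoneum. All of the higher ones (Tnfaip3, Tnip1, Socs1, Traf6, Pik3ap1, Irf5 and Map3k8) were under 50 CPM in healthy blood and passed the filter through other conditions alone, so that they had to differ and their counts say nothing about the lists. Map3k8 was 5.41-fold higher in the lung and 13.3-fold in the peritoneum, and Traf6 11.2-fold and 6.13-fold. The lower adaptors and kinases were Irak1, Irak4 and Tab2, of which 0 in the lung and 1 in the peritoneum were 2-fold lower with TMM factors. Irak1, the partner kinase of Irak2 in the receptor complex, was at 0.398, 0.280 and 0.251 of its healthy blood level in joint, lung and peritoneum, and at 0.586, 0.523 and 0.472 with TMM factors. Arthritic blood was low too, with Irak1 at 0.357 (interval 0.253 to 0.504), and at 0.492 with TMM factors. Of the accessory proteins Cnpy3, a receptor chaperone, was at 0.489, 0.201 and 0.166, and at 0.719, 0.375 and 0.312 with TMM factors.

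Patterns over the 11 pools were compared by Pearson's r of log2(CPM + 1) with 1999 genes with a mean of at least 50 CPM, for the 7 members at or above that mean, as a description, since pools share runs and a capture. The gene most like Cd14 was Hdc, the histidine decarboxylase (r = 0.9899), and that most like Tlr2 was Clec4e, the receptor Mincle (r = 0.986). Tlr4 was most like Egln3 (r = 0.991), Tlr13 like Sgpl1 (r = 0.967) and Myd88 like St3gal4 (r = 0.986). Irak2 was most like Mapkapk2 (r = 0.992), which was also the third gene for Irak3 (r = 0.978).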

How the data were processed

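Single-cell libraries were made by the authors on the 10X platform and, per the labels, processed with Cell Ranger against mm10, and the values deposited are UMI counts per gene and cell. The deposited run 1 tables list 7346 to 8657 genes, none with fewer than 11 UMIs, so an unlisted gene is not a true 0, and the tissue fits used genes with a row in all 6 healthy tables. Library totals were 1968514 to 16390439 UMIs. The authors kept hashtag singlets in the inflammation library, and no doublet caller was run here.

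UMIs were summed per library, since cells are not replicates, and tested by edgeR 4.0.16 (quasi-likelihood test, TMM, its default filter on low counts, run as a block, Benjamini-Hochberg adjustment, threshold 0.05), with DESeq2 1.42.0 as an alternative, in R 4.3.3. According to the paper, a single group of mice supplied all 3 tissues in each run. The 6 healthy libraries thus stem from 2 groups of mice. With run as a block, the p-values of the tissue fits measure how tissue differences varied between runs. They do not measure the spread between independent pools of mice. Those of the granule fit measure how the class difference varied among libraries, which share mice within a run. Deviations from tissue means of libraries of the same run correlated at r = 0.654 to 0.679 over 6533 genes, and each run was a separate experiment that covered all 3 tissues. SE is the log2 fold change divided by the square root of F. Granule classes were compared with library as a block. Conditions of the inflammation library were compared as CPM ratios without a test, for genes with at least 50 CPM in 1 or more conditions. The scripts were tested on simulated counts. Promoter sequences are RefSeq's and were read by gene symbol. All 9 members are named. Genes of the other lists are named where they were called most often or changed most, with others chosen after their values were seen. The members and lists were chosen with earlier results of these data known.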

Additional observations from a re-analysis of the deposited data

Results flagged for a closer look

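For 2 members the ratio to hashtagged healthy blood lay above 1 at one inflamed site and below 1 at another, with counting intervals that both excluded 1. Ly96 was at 1.355 times its healthy blood level in the arthritic joint (583 UMIs, interval 1.01 to 1.87) and at 0.616 times in the lung after IL-1β (34 UMIs, interval 0.384 to 0.978). Myd88 was at 0.5412 times its healthy blood level in the arthritic joint (1139 UMIs) and at 1.946 times in the peritoneum after IL-1β (375 UMIs). Each condition was 1 pool, so the difference between sites was not tested. With TMM factors Ly96 in the lung was at 1.15, above 1 like the joint, while Myd88 in the joint was at 0.796 and stayed below 1. Values in groups of 2 libraries were too few to look for a library far from the others.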

How the results depend on the processing

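Of 989 values under alternatives, 9 reversed, meaning that the direction changed and a call stood before or after, or the counting interval of the reported ratio excluded 1. A further 58 of 827 single-gene values changed side with no such call, among them Tlr13 in the peritoneum, 1.382 with TMM factors. Between bone marrow and blood, Tlr2 was at 1.087 and Ly96 at 0.4188 in granule-poor cells, at 1.06 and 0.3698 in those cells without spleen run 1 (chosen after seeing the data), and at 0.849 and 0.08903 without cells holding markers of other cell types (erythroid list aside, also chosen then, which kept 290 of 1206 and 1439 of 3426 marrow cells but 1122 of 1306 and 3342 of 3672 blood cells), where Irak3 became higher in bone marrow (0.9178). In cells with under 0.25% granule transcripts, chosen then too, Ly96 was at 0.5191. Cd14 in arthritic blood was at 0.9836 of healthy blood as a mean of per-cell shares, and Ly96 in the lung at 1.15 with TMM factors. The cause was not tested. For bone marrow against blood, 2037 genes and 5 members were called. Without the replicate block 259 genes and 0 members were, with all deposited cells 0 and 0, in granule-poor cells 536 and 3, in those without spleen run 1 876 and 3, in those under 0.25% 137 and 1, under DESeq2 1324 genes, and without marker-holding cells 1336 genes. For spleen against blood the 11 genes called became 31 under DESeq2, 31 with S100a8 and S100a9 at 10% or more, 0 without the replicate block, 0 with all deposited cells, 2 with quality limits, 3 in granule-poor cells, 101 in those without spleen run 1, 1 in those under 0.25%, 4 without marker-holding cells and 4 with unlisted run 1 genes set to 0. For bone marrow against spleen, 320 genes and 2 members became 0 and 0 without the block, 0 and 0 with all deposited cells, 487 genes in granule-poor cells without spleen run 1, 118 and 1 in those under 0.25%, 986 genes without marker-holding cells and 211 genes with unlisted genes set to 0. For granule classes, 2400 genes and 7 members became 878 and 3 without marker-holding cells and 940 and 4 with the erythroid list aside. The members at least 2-fold higher in the peritoneum went from 5 to 8 with TMM factors.

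Leaving out 1 library at a time gave 499 to 2663 genes and 2 to 5 members between bone marrow and blood, 0 to 231 genes and 0 members between spleen and blood, 51 to 1226 genes and 1 to 3 members between bone marrow and spleen, and 1881 to 2364 genes and 7 members between granule classes. The fewest calls came without blood run 1, blood run 2, spleen run 2 and bone marrow run 2, in that order of comparisons. The healthy fit without cells holding any other type's marker, erythroid included, was not run, since blood run 2 kept 2 cells. Depth limits Cd14 and Tlr6 in bone marrow run 1, at 9 and 23 UMIs, and Ly96 in the lung, at 34. It also limits Tlr4 and Tlr6 in spleen run 1, at 29 and 20, and Irak2 in spleen run 2, at 32. In blood run 1 Tlr4, Tlr6, Irak3 and Irak2 held 28, 28, 26 and 20 UMIs.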

Other observations

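Other Toll-like receptors were scarce in these neutrophils. None of the 9 genes of the list, the homologue Cd180 included, reached 50 CPM in a hashtagged condition. Tlr5, the flagellin receptor, was at 9.23 CPM in the arthritic joint (95 UMIs, exact 95% Poisson interval 7.47 to 11.3) and 6.31 CPM in arthritic blood (17 UMIs). Hashtagged healthy blood and the peritoneum held 1 and 2 Tlr5 UMIs, and the lung held 0, where 3 UMIs would stand at 2.27 CPM. Each condition was 1 pool, and the difference was not tested.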
